A study of Mus musculus with 126 samples.

Results

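The 9 genes described here encode subunits, other than the deacetylases themselves, of the complexes that carry class I histone deacetylases in mouse embryonic stem cells: Sin3a and Sin3b of the Sin3 complex, Rcor1 and Rcor2 of the CoREST complex, Ncor1 of the NCoR complex, and Mta1, Mta2, Mta3 and Chd4 of the NuRD complex. They were chosen by name, and all 9 were found among the 23420 genes of the deposited count table. The study concerns the parts that methylated DNA and acetylated histones play in transcription factor binding, and 8 of its 126 samples are the RNA-seq libraries used here. The other 118 samples were not analysed here. Every library came from J1 cells on gelatin in medium with serum and leukaemia inhibitory factor. The wild type DMSO group was given 0.0033% DMSO for 36 h, and the wild type TSA group was given Trichostatin A (TSA), an inhibitor of histone deacetylases, at a labelled 5 ng/µl for the same 36 h. The TKO DMSO and TKO TSA groups were cells labelled Dnmt1-/-, Dnmt3a-/-, Dnmt3b-/- with the same pair of exposures. Each group had 2 libraries, which the series calls biological replicates. The labels do not say whether they were separate cultures or how many TKO clones were used, so the p-values measure the spread between these libraries.

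Histone deacetylases of class I act in multi-subunit complexes, in which large scaffold proteins hold the enzyme and are brought to genes by DNA-binding repressors or methyl-CpG-binding proteins. Sin3a and Sin3b are alternative scaffolds around Hdac1 and Hdac2. Rcor proteins join Hdac1 or Hdac2 to the histone demethylase Kdm1a and are recruited by Rest, the repressor of neuronal genes, while Ncor1 binds and activates Hdac3 and is known as a corepressor of nuclear receptors. NuRD joins the same enzymes, through Mta proteins, to the nucleosome remodeller Chd4. TSA blocks the enzymes themselves, while the values below are transcript levels of the subunits that hold them.

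Rcor2, Ncor1 and Mta1 had the largest differences with TSA among the 9 genes, and Rcor1 is the paralog of Rcor2 that did not follow it. Their promoters are shown to let the 3 genes with the largest differences be set beside that paralog. The sequences are RefSeq's, of build GRCm38.p6, and run 5′ to 3′ on the gene's own strand from 250 bases before to 50 bases after the RefSeq start. The windows are chr19:7267144-7267443 on the plus strand for Rcor2, chr11:62457283-62457582 on the minus strand for Ncor1, chr12:113098028-113098327 on the plus strand for Mta1 and chr12:111039117-111039416 on the plus strand for Rcor1. Capitals mark matches on either strand to CCGGAAG (GABPA), CACGTG (MAX), GGGCGG (SP1), GCATGCGC (NRF1) or AAGATGGC (YY1), the core motifs of 5 factors that bind CpG-rich promoters.
Rcor2: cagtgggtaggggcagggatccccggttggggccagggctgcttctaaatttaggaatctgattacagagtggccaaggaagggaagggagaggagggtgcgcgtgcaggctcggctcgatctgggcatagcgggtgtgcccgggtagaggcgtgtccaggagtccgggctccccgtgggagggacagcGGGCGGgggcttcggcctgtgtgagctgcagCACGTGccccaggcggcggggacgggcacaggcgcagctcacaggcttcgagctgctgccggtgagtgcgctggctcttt
Ncor1: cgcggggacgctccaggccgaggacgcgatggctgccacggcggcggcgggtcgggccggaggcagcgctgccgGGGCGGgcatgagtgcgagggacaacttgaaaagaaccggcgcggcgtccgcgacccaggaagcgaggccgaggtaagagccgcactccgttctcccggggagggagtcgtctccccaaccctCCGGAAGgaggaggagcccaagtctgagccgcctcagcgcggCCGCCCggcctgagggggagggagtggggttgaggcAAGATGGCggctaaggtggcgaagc
Mta1: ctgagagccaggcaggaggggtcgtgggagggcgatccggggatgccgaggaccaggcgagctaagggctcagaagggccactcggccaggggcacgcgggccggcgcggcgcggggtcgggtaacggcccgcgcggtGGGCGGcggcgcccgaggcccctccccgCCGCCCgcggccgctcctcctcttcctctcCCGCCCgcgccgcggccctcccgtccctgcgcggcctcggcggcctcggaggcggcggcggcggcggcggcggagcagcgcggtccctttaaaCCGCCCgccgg
Rcor1: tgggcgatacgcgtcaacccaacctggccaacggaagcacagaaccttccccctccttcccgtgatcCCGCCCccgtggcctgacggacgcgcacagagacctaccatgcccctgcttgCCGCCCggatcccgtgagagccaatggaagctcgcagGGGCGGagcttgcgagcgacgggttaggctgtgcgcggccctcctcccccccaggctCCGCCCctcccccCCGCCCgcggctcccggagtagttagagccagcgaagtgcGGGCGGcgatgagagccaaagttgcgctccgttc

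All 4 printed windows hold SP1 matches, 1 in Rcor2, 2 in Ncor1, 4 in Mta1 and 6 in Rcor1, and 35.7% of the 32851 RefSeq promoter windows of this length hold at least 1. The windows of Rcor2, Ncor1 and Mta1 share no other match. SP1 matches are also in the windows of Sin3a, Sin3b, Mta2 and Chd4, which are not printed. Rcor2 has a MAX match, a palindrome, 30 bases before its start, which 7.15% of windows hold. Ncor1 has a GABPA match 53 bases before its start, which 8.86% of windows hold, and a YY1 match from base 26 after it, which 2.75% hold. The NRF1 motif, present in 2.71% of windows, is in none of the 8 windows found for the 9 genes, and no RefSeq window was found for Mta3. Marked matches do not overlap in these 4 windows. In the window of Mta2, not printed, the 2 GABPA matches overlap each other. The windows are CpG-rich: the median over all windows is 7 CpG dinucleotides, while Rcor2 has 21, Rcor1 31, Ncor1 36 and Mta1 50, and the other 4 genes have 14 to 30. The SP1 motif GGGCGG itself holds a CpG, and its share among windows as CpG-rich as these was not measured. A match describes these letters and does not show that a factor is bound.

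The libraries held 13280631 to 15542527 counts, so 3 counts correspond to 0.193 to 0.226 CPM, which is counts scaled to the total of the library, a floor that covers counting error only. Dnmt1 lay at 360.1 to 464 normalised CPM in the 4 wild type libraries and at 123 to 135 in the 4 TKO libraries, Dnmt3a at 152 to 237 against 25.9 to 39.1, and Dnmt3b at 343 to 596 against 43.7 to 76.1. H1f0, a linker histone gene known to respond to deacetylase inhibitors, had 40.1 and 50.3 CPM without and 98.1 and 120.02 CPM with TSA in wild type, and 63.4 and 90.2 without and 161 and 172 with it in TKO. All 10 listed markers of embryonic stem cells were above 1 CPM in every group. Their summed level was lower with TSA, with 2000.2 to 2280 against 3840 to 3912 CPM in wild type and 2301 to 2599.8 against 4461 to 4742 CPM in TKO. The summed level of 6 fibroblast or feeder cell markers was higher with TSA. It was 32.7 to 41.3 and 76.8 to 93.5 CPM in wild type and 10.6 to 10.9 and 34.4 to 51.6 in TKO. Dcn, 1 of the 6, went the other way, with means of 0.600 and 0.0985 CPM in wild type and 0.796 and 0 in TKO. The sum of 4 endoderm markers was also higher with TSA, at 5.28 to 6.40 and 8.00 to 10.7 CPM in wild type and at 15.8 to 17.6 and 24.0 to 26.1 in TKO. The largest change among them was in Sox17, with means of 0.493 and 3.29 CPM in wild type and 3.41 and 13.6 in TKO. Gata6 (5.26 and 4.01) and Gata4 (6.82 and 5.77) were lower with TSA in TKO. The sum of 4 mesoderm markers overlapped in wild type (15.3 to 25.1 and 14.1 to 19.4 CPM) and was higher with TSA in TKO (7.71 to 7.73 and 20.1 to 22.6). The part of these shifts in the results below was not tested. In bulk libraries, fewer cells of a type and less RNA per cell cannot be told apart.

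The 9 genes differed widely in level. On a scale that allows genes to be compared, normalised CPM per kb of exon, Chd4, the ATP-dependent motor of NuRD, was the highest in each group, at 118 ± 5.38 (SD, n = 2) in wild type DMSO. Rcor1 was the lowest in each group, at 7.69 ± 0.789 in wild type DMSO. Between them in wild type DMSO lay Mta2 at 69.7, Sin3a at 65.3, Rcor2 at 64.8, Sin3b at 46.6, Mta3 at 28.9, Ncor1 at 26.7 and Mta1 at 21.3 CPM per kb. The libraries of Mta2 overlapped those of Sin3a, and those of Sin3a overlapped those of Rcor2, so the order of these neighbours is not beyond their spread, while the other neighbours in that group did not overlap. With TSA, Rcor2 ranked below Sin3b in both genotypes, at 31.0 against 45.3 CPM per kb in wild type and at 27.0 against 53.8 in TKO. Averaged over the 8 libraries, the level per kb of Chd4 exceeded that of 95.6% of tested genes and that of Rcor1 exceeded that of 49.9%. The counts behind these levels ran from 244 for Rcor1 to 10956 for Chd4 in a library.

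**Figure D1:**
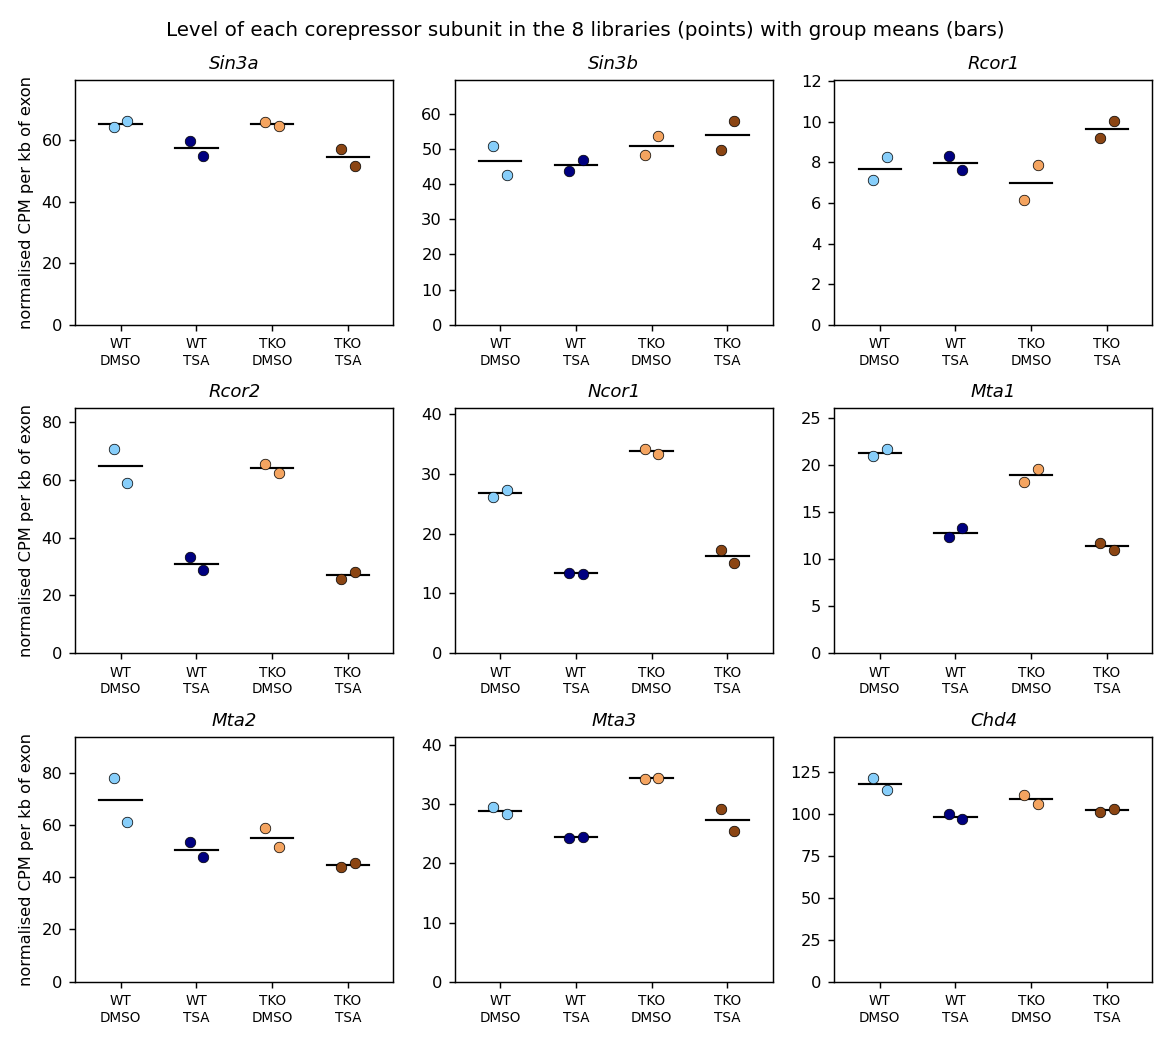
Normalised CPM per kb of exon (vertical axes, from 0) of the 9 subunit genes in the 8 libraries, with points for libraries, bars for means of 2 libraries and 1 column for each group. Rcor2, Ncor1 and Mta1 sit lower in the TSA columns of both genotypes with no overlap, while Sin3b overlaps between TSA and DMSO in both.

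TSA was first compared with DMSO in wild type cells, where DNA methylation is present, by edgeR's quasi-likelihood test with Benjamini-Hochberg adjustment over 15822 tested genes. Of the 9 genes, 5 fell and 0 rose: Rcor2, Ncor1, Mta1, Mta2 and Chd4. In TKO cells 6 fell, namely Rcor2, Ncor1, Mta1, Mta2, Mta3 and Sin3a, and Rcor1 rose. Calls were common in these comparisons. In wild type 52.8% of tested genes were called, 25.9% lower and 27.0% higher, and in TKO 58.7% were called, 27.9% lower and 30.8% higher. The overall count of 5 of 9 in wild type is therefore near its share. That of 7 of 9 in TKO is above its share, a difference that was not tested and rests on few genes. The libraries with TSA and with DMSO did not overlap for 77.0% of tested genes in wild type and 82.0% in TKO. The 9 genes are well-measured ones, and among the 7905 genes whose mean CPM was at least that of Rcor1, 38.7% were lower and 17.3% higher in wild type and 38.4% were lower and 22.2% higher in TKO. The median log2 fold change of the 9 genes was -0.26 in wild type and -0.31 in TKO, against 0.01 and 0.04 over all tested genes and -0.16 and -0.13 over those 7905. Under scaling by total counts the median of all genes moves to 0.22 in wild type and 0.19 in TKO, and by upper quartiles to 0.16 and 0.11, so small differences depend on the scaling. Rcor2, Ncor1 and Mta1 remained called lower in both genotypes under each of the 18 alternatives.

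**Figure D2:**
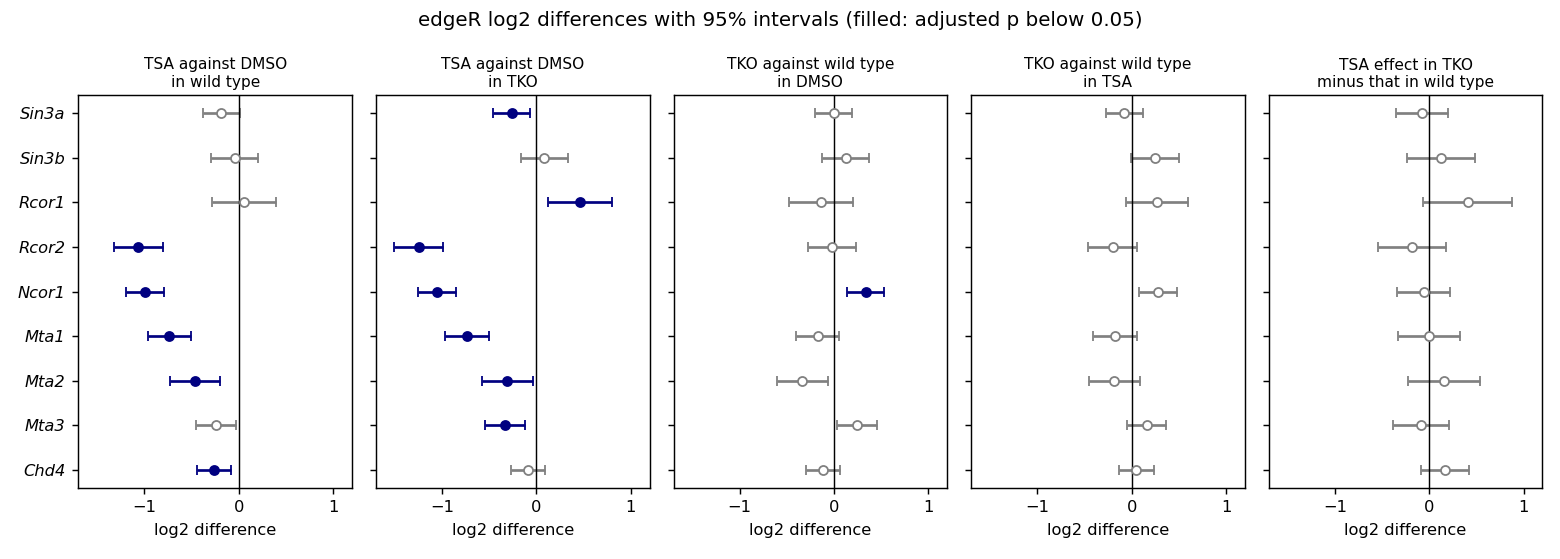
Log2 differences (horizontal axes) of the 9 genes, in rows, for the TSA and genotype comparisons and the interaction, with 95% intervals from edgeR and filled points for an adjusted p below 0.05. Rcor2, Ncor1 and Mta1 lie between -0.73 and -1.24 in both TSA panels, and no gene has a filled point in the interaction panel.

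In the CoREST complex, the 2 Rcor genes differed in their response. Rcor2 (chr19:7269764-7275225, plus strand, 2014 exon bases in the table) encodes a CoREST scaffold known for its high level in embryonic stem cells. In wild type the DMSO libraries had 142 and 119 normalised CPM of Rcor2 and the TSA libraries 67.2 and 57.7. In TKO the values were 132 and 126 with DMSO and 51.9 and 56.8 with TSA. All 4 TSA libraries lay below all 4 DMSO libraries, and the DMSO libraries of the 2 genotypes overlapped. Rcor2 fell by 1.06 ± 0.12 (SE) on the log2 scale in wild type (edgeR adjusted p = 5.37e-05) and by 1.24 ± 0.12 in TKO (edgeR adjusted p = 1.18e-05), to 47.9% and 42.2% of its DMSO level. The size of its log2 change exceeded that of 78.4% of tested genes in wild type and 78.9% in TKO. The gene model counted in the table begins 2370 bases downstream of the RefSeq start whose promoter is shown above, so any reads from exons before that point are not in these values.

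Rcor1 (chr12:111039798-111113386, plus strand, 2722 exon bases), the broadly expressed founding member of the CoREST family, had 19.4 and 22.5 CPM with DMSO and 22.7 and 20.8 with TSA in wild type, and these groups overlapped. Its TKO libraries had 16.7 and 21.4 CPM with DMSO and 25.04 and 27.4 with TSA, with no overlap. Its log2 fold change in wild type was 0.06, with a 95% interval from -0.28 to 0.39 (edgeR adjusted p = 0.779). In TKO it rose by 0.46 ± 0.15 (edgeR adjusted p = 0.0224), a call that was lost without TKO DMSO replicate 1 (0.29, adjusted p = 0.207) or without TKO TSA replicate 2 (0.39, adjusted p = 0.121). The difference between genotypes was 0.41, with an interval from -0.07 to 0.88 and an edgeR adjusted p of 0.432. The table's model of Rcor1 ends 2516 bases short of the RefSeq gene end, and the counts do not cover that stretch.

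Because shares within a family do not depend on how libraries are scaled, they show the same contrast without that choice. Rcor2 made up 85.8% and 89.0% of the summed per-kb level of Rcor1, Rcor2 and Rcor3 in the wild type libraries with DMSO, and 76.0% and 77.8% in those with TSA. In TKO it made up 87.5% and 90.3% with DMSO and 71.2% in each TSA library. The share of Rcor1 went from 10.5 ± 2.13% (SD, n = 2) to 19.8 ± 0.623% in wild type and from 9.73 ± 1.82% to 25.4 ± 0.0137% in TKO. Neither share overlapped between TSA and DMSO in either genotype, and how often family shares overlap was not measured. As Rcor1 and Rcor2 hold almost all of the sum, the rise of the Rcor1 share mirrors the fall of the Rcor2 share. The 2 are not separate results. The family sum went from 74.1 ± 7.55 to 40.3 ± 3.71 CPM per kb in wild type and from 72.0 ± 0.946 to 37.9 ± 2.42 in TKO. Rcor3, the remaining paralog, had 22 to 36 counts per library and 1.30 to 3.73% of the sum.

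Among the 14 other CoREST genes listed, 0 rose and 6 fell with TSA in wild type, and 2 rose and 6 fell in TKO. The medians were -0.27 and -0.25. Hdac1 and Hdac2 are also in the lists of Sin3 and NuRD, so the counts of these lists are not separate. The fall of Hdac2 in wild type is counted in each of them. Over all tested genes 27.0% rose and 25.9% fell in wild type and 30.8% and 27.9% in TKO. Among the 7905 well-measured genes 17.3% and 22.2% rose and 38.7% and 38.4% fell. Rcor3, Hdac1 and Hmg20b of the list, at means of 2.06, 14.8 and 20.8 CPM, lay below the 22.0 CPM that bounds those genes. Whether the counts of the list differ from such shares was not tested. The list's largest changes were in Rest, Ctbp1 and Phf21a. Rest, the repressor that recruits CoREST to neuronal genes, had 457 and 569 CPM with DMSO against 204 and 187 with TSA in wild type, and 445 and 476 against 171 and 152 in TKO. It fell by 1.39 ± 0.12 in wild type and by 1.51 ± 0.12 in TKO (edgeR adjusted p = 1.47e-05 and 4.04e-06). Ctbp1, a corepressor that binds repressors with a PxDLS-type motif, fell by 0.999 and 0.81, and Phf21a, the subunit that reads unmethylated histone H3 tails, fell by 0.66 and 1.10 (edgeR adjusted p at most 0.00105). Kdm1a, the demethylase of the complex, fell by 0.54 in TKO (edgeR adjusted p = 9.76e-04) and had a log2 fold change of -0.26 in wild type (adjusted p = 0.0505), which was called with the length offset, with limma-voom, without a filter on low counts and without wild type DMSO replicate 1.

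In the NCoR complex, Ncor1 (chr11:62316426-62457332, minus strand, 11144 exon bases), the scaffold that activates Hdac3, had 292 and 304 CPM with DMSO and 150.1 and 148 with TSA in wild type. The TKO libraries had 381 and 372 CPM with DMSO and 193 and 169 with TSA. The 4 groups did not overlap: TKO DMSO was the highest, followed by wild type DMSO, TKO TSA and wild type TSA. Libraries of the genotypes did not overlap for 59.8% of tested genes in DMSO and for 63.0% in TSA. The share of genes with all 4 groups apart was not counted. With TSA it fell by 0.997 ± 0.09 in wild type (edgeR adjusted p = 2.32e-05) and by 1.06 ± 0.09 in TKO (edgeR adjusted p = 7.04e-06). The interaction was -0.06, with an interval from -0.34 to 0.22. Of its exon bases, 16 (0.144%) overlap Ttc19 on the opposite strand, and the strand setting of the counting is not given in the sources used here.

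The subunits Tbl1xr1 and Tbl1x, WD40 proteins that bind Ncor1, fell with TSA. Tbl1xr1 fell by 1.08 and 1.11 (edgeR adjusted p = 6.80e-05 and 2.88e-05), and Tbl1x by 0.53 and 0.35 (9.69e-04 and 0.00898) in wild type and TKO, and the TKO call of Tbl1x was lost with total counts, without TKO DMSO replicate 1 and without TKO TSA replicate 1. Gps2, a small subunit of the same complex, rose by 0.72 and 1.13 (edgeR adjusted p = 0.00443 and 2.23e-04), a call lost in wild type without wild type TSA replicate 2. Of 5 other NCoR genes, these were the 1 that rose and the 2 that fell in each genotype, and the medians were -0.0046 and 0.017. A count of 3 called of 5 is near the 52.8% and 58.7% of all tested genes.

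In the NuRD complex, Mta1 (chr12:113098278-113137206, plus strand, 2775 exon bases) is 1 of 3 alternative subunits that bind and activate Hdac1 and Hdac2. In wild type it had 58.2 and 60.2 CPM with DMSO and 34.2 and 37.0 with TSA. The TKO values were 50.6 and 54.4 with DMSO and 32.5 and 30.5 with TSA. Every TSA library lay below every DMSO library. Mta1 fell by 0.73 ± 0.11 in wild type and by 0.74 ± 0.11 in TKO (edgeR adjusted p = 2.38e-04 and 1.62e-04), to 60.1% and 60.0% of its DMSO level, and the interaction was -0.0026 with an interval from -0.33 to 0.32.

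Mta2 (chr19:8941920-8952300, plus strand, 3087 exon bases), the most abundant of the 3 per kb, had 241 and 189 CPM with DMSO and 165 and 147 with TSA in wild type. In TKO these were 181 and 159.8 with DMSO and 136 and 139.9 with TSA. The groups did not overlap within a genotype, but the wild type DMSO libraries lay far apart. Mta2 fell by 0.46 ± 0.12 in wild type (edgeR adjusted p = 0.00858), a call lost with total count scaling, without wild type DMSO replicate 1 (-0.28, adjusted p = 0.0759) or without wild type TSA replicate 2. Its call in TKO (-0.31 ± 0.12, edgeR adjusted p = 0.0493) was lost under 12 of the 18 alternatives, among them leaving out any library of TKO DMSO, TKO TSA or wild type TSA.

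Mta3 (chr17:83706163-83814905, plus strand, 3059 exon bases) is the third paralog. Wild type libraries had 90.1 and 86.9 CPM with DMSO and 74.5 and 75.03 with TSA, and TKO libraries had 105 and 106 with DMSO and 89.2 and 77.8 with TSA. The groups did not overlap within a genotype. Its log2 fold change with TSA was -0.24 ± 0.096 in wild type (edgeR adjusted p = 0.0519), just short of the threshold. In TKO it fell by 0.33 ± 0.096 (edgeR adjusted p = 0.0112), a call lost with total count scaling, without TKO DMSO replicate 2 (adjusted p = 0.0548) or without TKO TSA replicate 2 (adjusted p = 0.116). The wild type value was called with the length offset (adjusted p = 0.0205) and without TKO TSA replicate 1 (0.0463) or replicate 2 (0.0471). The table's model of Mta3 ends 8810 bases before the RefSeq gene end.

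Chd4 (chr6:125096163-125130501, plus strand, 6425 exon bases), the remodeller of NuRD, had 782 and 733 CPM with DMSO and 642 and 623 with TSA in wild type. The TKO libraries had 714 and 682 CPM with DMSO and 649 and 662 with TSA. The groups did not overlap in either genotype, though those of TKO lay close together. It fell by 0.26 ± 0.08 in wild type (edgeR adjusted p = 0.0210). That call was lost with upper quartile scaling (-0.11), with total counts (-0.06), in a fit of the 2 compared groups, and without wild type DMSO replicate 1 or either wild type TSA library. In TKO the log2 fold change was -0.09, with an interval from -0.27 to 0.09 and an edgeR adjusted p of 0.366, and it turned positive with total counts. Chd4 made up 94.6 to 97.5% of the summed level per kb of Chd3, Chd4 and Chd5 over the 8 libraries. Chd3, which can replace it in NuRD, fell by 0.53 in wild type (edgeR adjusted p = 0.0137, lost with upper quartile scaling, with total counts and without wild type DMSO replicate 1 or wild type TSA replicate 2) and by 1.06 in TKO (1.94e-04).

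Of the 13 other NuRD genes listed, 2 rose and 9 fell with TSA in wild type and 3 rose and 6 fell in TKO. The medians were -0.47 and -0.29. Hdac1, Hdac2, Rbbp4 and Rbbp7 are in the Sin3 list as well, and Hdac1 and Hdac2 in that of CoREST. Over all tested genes 27.0% and 30.8% rose and 25.9% and 27.9% fell. Of the well-measured ones 17.3% and 22.2% rose and 38.7% and 38.4% fell. Chd5, Cdk2ap1, Hdac1 and Gatad2b of the list, at means of 7.95, 11.6, 14.8 and 21.9 CPM, lay below the 22.0 CPM that bounds those genes. In wild type Hdac2, Gatad2a and Zmynd8 were called at -0.27, -0.29 and -0.24 (edgeR adjusted p = 0.0316, 0.0303 and 0.0433), small changes. Whether the counts of the list differ from such shares was not tested. Cdk2ap1, a small NuRD subunit, fell by 1.82 ± 0.23 in wild type and fell by 1.93 ± 0.23 in TKO (edgeR adjusted p = 1.01e-04 and 5.14e-05), from group means of 20.1 to 5.68 CPM and from 16.5 to 4.32 CPM. The 2 methyl-CpG-binding-domain subunits, which are alternatives to each other in the complex, moved in opposite directions. Mbd3, which does not need methylated DNA to bind, had 73.6 and 61.8 CPM with DMSO against 39.9 and 31.1 with TSA in wild type, and 60.8 and 51.2 against 32.6 and 27.6 in TKO. It fell by 0.93 ± 0.15 and by 0.898 ± 0.15 (edgeR adjusted p = 5.30e-04 and 5.09e-04). Mbd2, which binds methylated CpGs, had 19.6 and 19.0 CPM with DMSO against 31.9 and 34.4 with TSA in wild type, and 13.8 and 14.3 against 30.1 and 28.5 in TKO. It rose by 0.78 ± 0.12 in wild type and by 1.06 ± 0.12 in TKO (edgeR adjusted p = 3.99e-04 and 4.11e-05). Both genes kept these calls under each of the 18 alternatives in both genotypes. The share of Mbd2 in their summed level per kb, a measure chosen after its values were seen, went from 19.7 ± 1.60% to 44.7 ± 5.61% with TSA in wild type and from 17.8 ± 2.15% to 45.6 ± 1.99% in TKO.

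**Figure D3:**
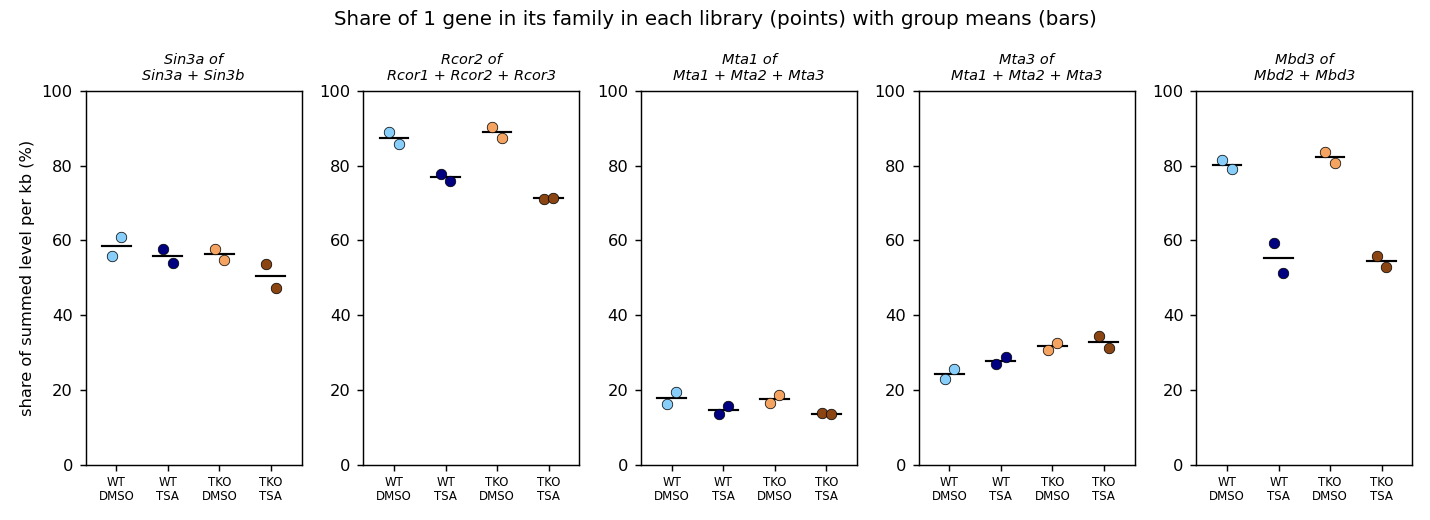
Share (vertical axes, percent, 0 to 100) of 1 gene in the summed level per kb of its family in each library, with points for libraries, bars for means of 2 libraries and 1 column for each group. With TSA the Rcor2 share goes from 87.4 to 76.9% in wild type and from 88.9 to 71.2% in TKO, and the Mbd3 share from 80.3 to 55.3% and from 82.2 to 54.4%.

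In the Sin3 complex, neither scaffold gene passed the test in wild type, and Sin3a fell in TKO. Sin3a (chr9:57072040-57128368, plus strand, 5243 exon bases), the scaffold that early embryos require, had 337 and 348 CPM with DMSO and 314 and 288 with TSA in wild type. For TKO the values were 346 and 339 with DMSO and 299.7 and 271 with TSA. The groups did not overlap in either genotype. Its log2 fold change in wild type was -0.19, with an interval from -0.38 to 0.01 (edgeR adjusted p = 0.0990), and it was 0.018 with total counts and was called with the length offset (-0.26, adjusted p = 0.0345). In TKO Sin3a fell by 0.26 ± 0.09 (edgeR adjusted p = 0.0251), a call lost with upper quartile or total count scaling, without either TKO DMSO library and without TKO TSA replicate 2.

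Sin3b (chr8:72723288-72758203, plus strand, 4299 exon bases), the second scaffold, had 218 and 183 CPM with DMSO against 188 and 201 with TSA in wild type, and 207 and 230.1 against 213 and 249 in TKO. The groups overlapped in both TSA comparisons. Its log2 fold change was -0.04 in wild type (interval -0.29 to 0.21) and 0.08 in TKO (interval -0.17 to 0.33). The sign turned with upper quartile or total count scaling in wild type and with the length offset in TKO. The share of Sin3a in the summed level per kb of both scaffolds was 58.4 ± 3.64% with DMSO and 55.9 ± 2.60% with TSA in wild type, with overlap, and 56.3 ± 2.16% and 50.3 ± 4.54% in TKO, without overlap.

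Of the 19 other Sin3 genes tested, 4 rose and 5 fell with TSA in wild type and 6 rose and 5 fell in TKO, with medians of -0.15 and -0.08. These counts are near the 52.8% and 58.7% of all tested genes that were called. Hdac1, Hdac2, Rbbp4 and Rbbp7 are also in the NuRD list, so the counts of the lists are not separate. Fam60a, a Sin3 subunit known for its role in embryonic stem cells, fell by 1.20 and 1.30 (edgeR adjusted p = 1.03e-04 and 4.00e-05). Sap30, a bridging subunit, fell by 0.70 in wild type and by 0.55 in TKO, and Sap18 rose by 0.73 in each (edgeR adjusted p at most 0.00211 for both genes). Rbbp7, a histone-binding subunit that Sin3 shares with NuRD, rose by 0.69 and 0.58, while its paralog Rbbp4 fell by 0.48 and 0.43 (edgeR adjusted p at most 0.00197 for both).

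**Figure D4:**
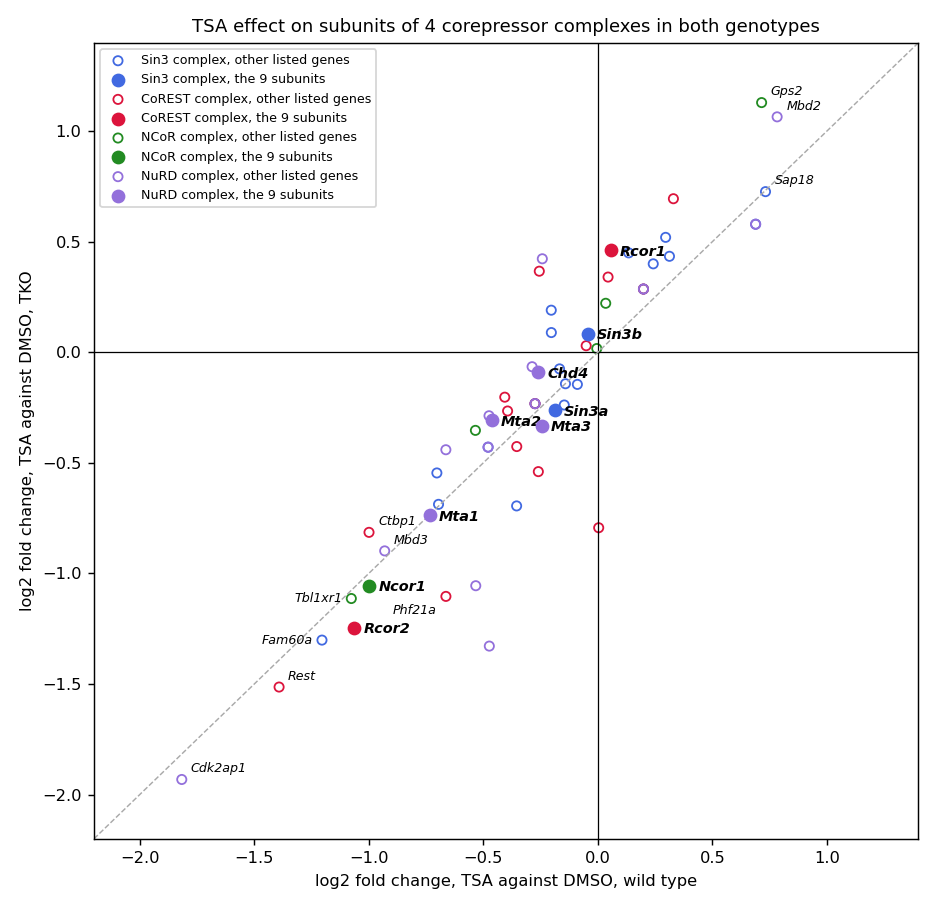
Log2 fold change with TSA in TKO (vertical axis) against that in wild type (horizontal axis) for the 9 subunit genes (filled) and the other listed genes of the Sin3, CoREST, NCoR and NuRD complexes (open), with a dashed line of equal change. Cdk2ap1 and Rest lie lowest, at -1.82 and -1.93 and at -1.39 and -1.51, and Gps2, Mbd2 and Sap18 lie at the upper right.

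Of the 3 deacetylase genes tested, Hdac1, Hdac2 and Hdac3, 1 passed the test with TSA, and in wild type cells. Hdac2 had 188 and 218 CPM with DMSO and 165 and 171 with TSA in wild type, and fell by 0.27 (edgeR adjusted p = 0.0316). That call was lost under 7 of the 18 alternatives, among them leaving out wild type DMSO replicate 2 or either wild type TSA library. In TKO its log2 fold change was -0.23 (adjusted p = 0.0547), which was called with the length offset, without a filter on low counts, in a fit of the 2 compared groups and without either wild type DMSO library. Hdac3, the partner of Ncor1, was at 99.4 to 117 CPM in the 8 libraries. Its log2 fold change was -0.0046 in wild type (interval -0.24 to 0.23) and 0.017 in TKO (interval -0.22 to 0.25), with signs that changed with the settings. Hdac1 was at 11.1 to 18.4 CPM, with log2 fold changes of 0.20 and 0.29 (adjusted p = 0.301 and 0.144), the TKO value being called with total counts. Its counts are uncertain because the mouse genome holds processed copies of this gene and the handling of reads that map to several places is not given in the sources used here.

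The genotype was compared next, without and with the inhibitor. The number of TKO clones is not given, so loss of DNA methylation cannot be told apart from other differences between the cell lines. In DMSO, 1 of the 9 genes was called, Ncor1, where 20.4% of tested genes were called, 9.63% higher. Ncor1 was higher in TKO by 0.34 ± 0.09 (edgeR adjusted p = 0.0228). The libraries of the genotypes did not overlap, as for 59.8% of tested genes. The call was lost without wild type DMSO replicate 1 (adjusted p = 0.115), TKO DMSO replicate 1 (0.123) or TKO DMSO replicate 2 (0.101). Mta2 had a log2 fold change of -0.34 (adjusted p = 0.0752) and Mta3 of 0.25 (adjusted p = 0.0930), and neither was called. Without wild type DMSO replicate 2, Mta2 was called (-0.50, adjusted p = 0.0111), and without wild type DMSO replicate 1 its value was -0.17 (adjusted p = 0.413). The Mta3 share of the Mta family does not depend on scaling. It was 22.9 and 25.5% in the wild type DMSO libraries and 30.8 and 32.6% in TKO DMSO. The Mta2 share was 55.0 and 60.8% against 48.9 and 52.8%. Neither share overlapped, but shares of a family sum to the whole, so the 2 shifts are not separate results. How often family shares overlap between groups was not measured.

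In TSA, 0 of the 9 genes were called between the genotypes by edgeR, where 18.4% of tested genes were called and the libraries of 63.0% did not overlap. At an unadjusted p below 0.05 there was 1, Ncor1, at 0.28 (adjusted p = 0.0570), which was called without wild type DMSO replicate 2 (adjusted p = 0.0459). DESeq2 and limma-voom also called 0 of the 9. The interaction, which tests whether the TSA effect differed between genotypes, called 0 of the 9, with 0 at an unadjusted p below 0.05 and 0 by DESeq2 and limma-voom, where 1.35% of tested genes were called. The 95% interval of the interaction ran from -0.54 to 0.18 for Rcor2 and from -0.09 to 0.43 for Chd4, so a missed threshold does not show equal effects.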

How the data were processed

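The authors deposited raw read counts per gene for 8 libraries of ribosomal-RNA-depleted total RNA, with exon coordinates and, for each gene, the exon length in bases. Per the labels' protocols, a strand-directional kit and paired reads were used. The submitters' processing notes name TopHat2 2.0.13, featureCounts 1.4.5-p1, edgeR 3.22.3 and build mm10, without roles. The strand and multi-mapping settings are not given in the sources used here. Coordinates of genes are those of the table.

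The test was the quasi-likelihood F test of edgeR 4.0.16 (R 4.3.3). Of 23420 genes, 15822 passed filterByExpr. Libraries were scaled by TMM factors, and all 8 entered 1 fit with 4 group means (4 residual degrees of freedom, two-sided tests, Benjamini-Hochberg adjustment over tested genes, called at an adjusted p below 0.05). The common biological coefficient of variation was 10.3%. Approximate standard errors came from the F statistic. For 2 against 2 libraries an exact permutation test of a gene cannot go below 0.333. Libraries of a group differed beyond sampling noise (chi-square per degree of freedom 4.54 to 10.3) and each counted as 1 replicate. Levels are CPM after TMM scaling.

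The genes, lists and alternatives were chosen with earlier results of these data known. Named genes are the 9 subunits, checks of genotype and inhibitor, Hdac1, Hdac2, Hdac3, the paralogs, for each list and contrast up to 3 called genes, and the gene most like each subunit. Other named genes of the lists were chosen after their values were seen. They are Kdm1a, Rbbp4 and Gatad2a, and Rbbp7, Sap30, Mbd3, Chd3, Zmynd8, Nefm, Tubb3 and Syt4 in contrasts where they were not among the 3. Alternatives were other scalings, a length offset, other filters, DESeq2 1.42.0, limma 3.58.1 (voom), a replicate block, a fit of the 2 groups compared, and leaving out each library. The script was tested on simulated data. Results on 1 listed gene are not reported here.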

Additional observations from a re-analysis of the deposited data

How the results depend on the processing

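The calls of Rcor2, Ncor1 and Mta1 with TSA held in both genotypes under each of the 18 alternatives, with at least 481 counts of each in every library. Under total counts, 3 of the 9 genes were called with TSA in wild type and 4 in TKO. Leaving out 1 library at a time gave 3 to 6 and 3 to 7, and for TKO against wild type 0 to 2 in DMSO and 0 to 1 in TSA. Over the whole table, called genes were then 1458 to 3330 in DMSO, 941 to 3443 in TSA and 10 to 410 for the interaction, which otherwise called 213, or 394 with DESeq2, 107 with limma-voom and 488 without a filter on low counts. The cause was not tested. Across genes, libraries with the same replicate number deviated from their group means with a correlation of 0.0673 to 0.325, and the labels do not say what a number marks. With the replicate number as a block, 2 of the 9 genes were called between genotypes in DMSO (Ncor1 and Mta2, adjusted p of Mta2 0.0247), 1 in TSA (Ncor1, 0.0356), and 633 genes over the table for the interaction, and Mta3 was called with TSA in wild type (0.0361). Kdm1a with TSA in wild type and Hdac2 with TSA in TKO were called as well, and no other call of the 9 genes changed with the block.

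Reversed signs occurred among differences near 0. For TSA in wild type, Sin3a was at 0.018 with total counts, Sin3b at 0.11 with upper quartiles and 0.16 with total counts, and Rcor1 at -8.76e-04 with the length offset. Hdac3 was at 0.15 and 0.20 with upper quartiles and total counts, 0.012 with RLE factors, 0.0063 with DESeq2, 0.0042 with a filter of 1 CPM in 2 libraries and 0.0038 in the fit of the groups compared. For TSA in TKO, Sin3b was at -0.018 with the length offset, Chd4 at 0.058 with total counts, and Hdac3 at -5.34e-04 with the length offset and -0.018 without a filter. For TKO against wild type in DMSO, where Sin3a was at -2.39e-04, it was at 0.0039 with RLE factors, 0.031 with upper quartiles, 0.021 with total counts, 0.0016 with DESeq2, 9.12e-05 with limma-voom, 0.017 without a filter, 0.0021 with the filter of 1 CPM and 0.0050 in the fit of the groups compared. Rcor2 was at 0.013, 0.0016 and 0.0066 with upper quartiles, total counts and the length offset.

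With 1 library left out, the range for TSA in wild type was -0.17 to 0.090 for Sin3b, -0.049 to 0.16 for Rcor1 and -0.12 to 0.096 for Hdac3. In TKO it was -0.037 to 0.19 for Sin3b and -0.061 to 0.086 for Hdac3. Between genotypes in DMSO it was -0.041 to 0.023 for Sin3a, -0.32 to 0.033 for Rcor1 and -0.14 to 0.10 for Rcor2. For the interaction it was -0.16 to 0.037 for Ncor1, -0.059 to 0.054 for Mta1, -0.023 to 0.32 for Mta2 and -0.19 to 0.0082 for Mta3.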

Other observations

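Genes known to be bound by Rest, the recruiter of CoREST, moved in both directions where Rest and Rcor2 were lower. Of 16 tested genes from such a list, 6 rose and 4 fell with TSA in wild type and 8 rose and 5 fell in TKO, with median log2 fold changes of 0.47 and 0.48 against 0.01 and 0.04 over all tested genes, of which 52.8% and 58.7% were called, 27.0% and 30.8% higher. Among the 7905 well-measured genes 17.3% and 22.2% were higher, so the share that rose depended on level. Calb1, Nefm and Syt4 of the list, at means of 7.71, 17.2 and 11.8 CPM, lay below the 22.0 CPM that bounds those genes, and Tubb3 lay above it at 121. Whether the list differs from genes of like level was not tested. Calb1, a calcium-binding protein of neurons, rose from a mean of 0.705 to 11.1 CPM in wild type and from 0.843 to 18.2 CPM in TKO (log2 fold change 3.99 and 4.42, edgeR adjusted p = 1.02e-04 and 2.04e-05). Nefm, a neurofilament gene, rose from 2.56 to 56.8 CPM in TKO (log2 fold change 4.46, edgeR adjusted p = 7.47e-06). In wild type it had 3.48 and 5.97 CPM (log2 fold change 0.75, adjusted p = 0.149), with overlap. Its interaction was 3.71 (edgeR adjusted p = 0.0208), a call lost without wild type DMSO replicate 1 (2.44, adjusted p = 0.0906) or either TKO DMSO library (adjusted p = 0.0551 and 0.129). In the other direction, Tubb3, a neuronal tubulin, fell by 1.12 in wild type and fell by 1.72 in TKO (edgeR adjusted p = 5.54e-05 and 3.09e-06), and Syt4, a synaptic vesicle protein, fell by 1.42 in wild type and fell by 1.43 in TKO (edgeR adjusted p = 0.00143 and 0.00189). The summed level of 4 neural markers was 152 to 239 CPM in wild type DMSO and 65.4 to 85.1 in wild type TSA, and 88.8 to 109 and 75.7 to 77.5 in TKO, and its part in these values was not tested.

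In the other complexes that hold class I deacetylases, MiDAC and MIER, 0 of 6 tested genes rose with TSA in either genotype, while 2 fell in wild type and 3 in TKO. Over all tested genes 27.0% rose and 25.9% fell in wild type and 30.8% and 27.9% in TKO. Of the well-measured ones 17.3% and 22.2% rose and 38.7% and 38.4% fell. Dnttip1 and Trerf1 of this list, at 12.9 and 5.49 CPM, lay below the level of the well-measured genes. Whether the counts of these 6 genes differ from such shares was not tested. Mier3 fell by 0.63 in wild type and by 0.76 in TKO (edgeR adjusted p = 0.00132 and 2.84e-04). Between genotypes in TSA, Hmg20b of CoREST was lower in TKO by 1.15 on the log2 scale, with 11.6 CPM against 25.8 in wild type (edgeR adjusted p = 0.00156), and Zfp217 was higher by 0.76, at 102 and 174 CPM (edgeR adjusted p = 0.0026). Rbbp7 of Sin3 and NuRD was lower in TKO by 0.50 in DMSO and by 0.61 in TSA (edgeR adjusted p = 0.00834 and 0.00343). The DMSO call of Rbbp7 held under 16 of the 18 alternatives and its TSA call under all 18. Zmynd8 of NuRD was the 1 listed gene of the Sin3, CoREST, NCoR and NuRD complexes whose TSA effect differed between genotypes (interaction 0.67, edgeR adjusted p = 0.0371). Its group means were 137 and 116 CPM in wild type DMSO and TSA and 104 and 139.6 in TKO, and the call was lost under 9 of 17 alternatives, among them leaving out any library but wild type DMSO replicate 2.

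Over the 8 libraries, the gene most like Rcor2 in log2 CPM was Pprc1 (Pearson's r 0.997 over 14420 genes compared), that most like Ncor1 was Tenm4 (0.996) and that most like Mta1 was Vars (0.993). For the others they were Wdr4 for Mta2 (0.995), Pdk1 for Sin3a (0.993), Lig1 for Mta3 (0.989), Bcl2l14 for Rcor1 (0.987), Notch3 for Chd4 (0.984) and Rgs12 for Sin3b (0.939). The libraries share 4 groups, so the values describe the pattern only.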
